A study of Homo sapiens with 12 samples.

Results

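A module of 36 genes around the transcription factor ATF4 was followed across 4 human breast cell lines. The module was a list of names: ATF4 and the transcription factors that act with it, feedback genes it switches on, enzymes of serine, one-carbon, asparagine and proline metabolism, amino acid transporters, cytosolic tRNA synthetases and a pair of surface or secreted proteins. The names were chosen by role, with earlier results of these data known. All 36 names had a row among the 29744 gene rows of the deposited table, and all 36 passed the filter on low counts. RNA was sequenced in 3 biological replicates per line, 12 libraries in all, as a trial of how reproducibly a preparation yields DNA, RNA and peptides together. A10 is MCF10A, a mammary epithelial line that forms no tumours. NeoT is MCFNeoT, placed at benign hyperplasia by the series design. T1 is MCFT1, placed at atypical hyperplasia, and CA1 is MCFCA1, placed at invasive cancer. As background, NeoT was made from MCF10A by transfer of a mutant HRAS, and T1 and CA1 were recovered from xenografts of its descendants, so each line is 1 lineage in culture. The design calls all 4 lines triple-negative, and no treatment is named for any of them. Levels are given as CPM, counts per 1000000 counts of a library after TMM scaling of the library sizes. Levels are compared between lines for the same gene, or for the sum of the same marker list, and not between genes, because counts were not divided by gene length.

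ATF4 is the effector of the integrated stress response. Kinases that sense missing amino acids, misfolded protein in the endoplasmic reticulum, viral RNA or lack of haem phosphorylate the initiation factor eIF2alpha, which slows most translation while ribosomes reach the ATF4 reading frame past short upstream frames. The level of ATF4 mRNA is therefore not a reading of ATF4 protein or of its activity. ATF4 binds, with C/EBP family partners, to composite sites called CARE or amino acid response elements, and its known targets bring amino acids into the cell, make serine, glycine, asparagine and proline, and charge tRNAs. Serine feeds the mitochondrial folate enzymes that supply one-carbon units for nucleotide synthesis, and serine synthesis has been studied in breast cancer because PHGDH lies in a region gained in some tumours.

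The sequences below show what the core of a CARE looks like in 2 of these genes, beside the promoter of the transporter gene with the widest difference between NeoT and A10. Genes were searched if a single RefSeq promoter window on GRCh38.p14 was at hand, which held for 17 of the 36 genes. A window ran from 250 bases before to 50 bases after a start. Each line gives the 250 bases before the start, 5′ to 3′ along the gene. Capitals mark a match to the CARE core TGATGNAA, here read on the opposite strand.
CHAC1 (chr15:40953221-40953470, plus strand): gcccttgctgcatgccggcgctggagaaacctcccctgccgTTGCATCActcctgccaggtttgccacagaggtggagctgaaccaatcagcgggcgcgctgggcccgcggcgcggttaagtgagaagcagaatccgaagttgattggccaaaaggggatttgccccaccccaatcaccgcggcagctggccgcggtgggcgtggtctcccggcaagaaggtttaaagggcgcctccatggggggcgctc
AARS (chr16:70289507-70289756, minus strand): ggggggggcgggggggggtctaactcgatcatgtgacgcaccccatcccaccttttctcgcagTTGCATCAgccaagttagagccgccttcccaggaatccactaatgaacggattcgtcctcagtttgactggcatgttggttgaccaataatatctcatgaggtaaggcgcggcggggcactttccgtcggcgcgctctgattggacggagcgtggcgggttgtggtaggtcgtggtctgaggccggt
SLC7A5 (chr16:87869508-87869757, minus strand): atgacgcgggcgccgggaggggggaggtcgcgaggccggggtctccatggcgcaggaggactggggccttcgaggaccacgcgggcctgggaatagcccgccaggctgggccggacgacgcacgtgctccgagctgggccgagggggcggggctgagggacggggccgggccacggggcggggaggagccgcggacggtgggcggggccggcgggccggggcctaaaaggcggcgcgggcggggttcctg
The match TTGCATCA began 209 bases before the start of CHAC1, which encodes a glutathione-degrading enzyme, and 187 bases before the start of AARS, the alanyl-tRNA synthetase gene. SLC7A5 had no match in these letters. On either strand, TGATGNAA was in 4 of the 17 windows (23.5%) and in 1270 of 35116 RefSeq promoter windows of the same length (3.62%). MARS and SLC7A1 were the others, with TTGCATCA from 4 bases before the start of MARS and TGATGAAA 8 bases after the start of SLC7A1. The cyclic AMP response element TGACGTCA was in 0 of the 17 windows and in 649 of all windows (1.85%). A match describes letters and is not evidence of a site in use.

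Library totals ran from 18032404 to 35730417 counts, and the 36 genes took 0.702% to 1.13% of the counts of a library. Cytoplasmic rRNA rows took 7.76% of counts in T1 replicate 1 and 0.954% to 2.18% in the other 11 libraries. The biological coefficient of variation over all tested genes was 15.9% in NeoT, 8.64% in A10, 8.32% in T1 and 6.41% in CA1. HRAS was higher in each derived line, at 239 CPM in NeoT, 158 in T1 and 302 in CA1 against 64.5 in A10 (log2 fold changes 1.89, 1.29 and 2.23). Of 9 breast epithelial markers, 7 were lower in NeoT than in A10, and their summed level was 789.7 to 911 CPM in NeoT libraries against 5654 to 6083 in A10 libraries. NeoT held 0.691 CPM of the epithelial cadherin CDH1, against 313 in A10, and no count of the basal regulator TP63. The 1 marker higher in NeoT was the keratin KRT8, at 473 CPM against 147 in A10. The keratin KRT18 was at 329 CPM in NeoT against 350 in A10. The sum was 6809 to 7222 CPM in T1 and 8471 to 9237 in CA1. Of the 9 markers, 6 were higher and 3 lower than in A10 in T1, and 4 higher and 4 lower in CA1. The keratin KRT8 was at 1657 CPM in T1 and 3699 in CA1 against 147 in A10. The basal keratin KRT5 was at 1963 CPM in T1 and 271 in CA1 against 3347 in A10. Of 7 fibroblast markers, 5 were tested, of which 2 were higher and 1 lower in NeoT than in A10, with a list sum of 612 to 679.6 CPM in NeoT against 132 to 139.8 in A10. The matrix protein gene DCN rose, at 632 CPM in NeoT against 69.1 in A10, and the matrix protein gene POSTN fell, at 0.853 CPM in NeoT against 62.3 in A10. All 3 tested adipocyte markers were higher in NeoT, with a list sum of 35.1 to 46.8 CPM against 0.0361 to 0.409 in A10, while ADIPOQ had no count in any library. Leukocyte markers summed to 204 to 219.6 CPM in NeoT and 70.3 to 73.6 in A10. Of them CD68 rose, at 159 CPM in NeoT against 8.27 in A10, CD14 fell, at 53.5 CPM in NeoT against 64.1 in A10, and PTPRC and CD3E had 0 counts in every library. Endothelial markers summed to 2.59 to 3.49 CPM in NeoT against 7.14 to 10.3 in A10. In T1 and CA1 these sums differed from A10 as well. Endothelial markers summed to 82.7 to 90.5 CPM in T1 and 23.7 to 25.0 in CA1, with PECAM1 at 85.6 CPM in T1 and 23.96 in CA1 against 2.09 in A10. Of the 3 tested endothelial markers, 1 was higher and 1 lower than in A10 in T1, and likewise in CA1. KDR was at 0.346 CPM in T1 and had no count in CA1, against 5.81 CPM in A10. Fibroblast markers summed to 2.56 to 2.94 CPM in T1 and 3.63 to 4.74 in CA1, leukocyte markers to 95.5 to 104 in T1 and 101.5 to 106 in CA1, and adipocyte markers to 0.641 to 0.949 in T1 and 4.44 to 6.39 in CA1. What part these marker differences have in the values of the module was not tested. With CDH1 near 0 and TP63 at 0, these files do not settle whether the libraries labelled NeoT hold the line their label names, and each NeoT value below is a value of those libraries. In bulk RNA, fewer cells of a kind and less RNA per cell cannot be told apart, and p-values measure the spread between replicates of a culture.

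The ATF4 module was mostly raised in T1 and CA1. In NeoT it was divided, as were all tested genes, with a share of higher genes near theirs and a larger share of lower genes. Tests were edgeR's quasi-likelihood test with Benjamini-Hochberg adjustment over 14417 genes, and a gene was called at an adjusted p under 0.05. All 36 genes differed among the 4 lines in the joint test, as did 89.8% of all tested genes. In NeoT against A10, 12 of the 36 rose and 18 fell, beside 33.7% of all tested genes higher and 36.7% lower, and the median log2 fold change was -0.24 for the module and -0.042 for all genes. In T1 against A10, 26 rose and 3 fell, beside 26.0% higher and 25.9% lower, with medians of 0.53 and -0.0066. In CA1 against A10, 23 rose and 8 fell, beside 34.4% higher and 36.5% lower, with medians of 0.67 and -0.023.

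T1 was also set against NeoT, the line before it in the series, and again most of the module was higher. There 25 genes of the module were higher in T1 and 7 lower, beside 35.0% of all tested genes higher and 32.4% lower, with medians of 0.77 for the module and 0.014 for all genes. Of these, 15 were at least 2-fold higher and 2 at least 2-fold lower in T1, while 17.1% of all tested genes were at least 2-fold higher and 13.4% at least 2-fold lower. In CA1 against NeoT, 24 were higher and 5 lower, beside 33.8% and 32.7% of all genes, with a median of 0.57 for the module. Between CA1 and T1 the module showed no common direction: 12 were higher and 14 lower in CA1, beside 30.4% and 31.9% of all genes, with a median of -0.021. The comparisons share libraries, so their counts are not independent of each other. T1 held the highest mean of 14 of the 36 genes, where 17.0% of all tested genes were highest in T1. NeoT held the lowest mean of 18, where 31.7% of all tested genes were lowest in NeoT. Without T1 replicate 1 and NeoT replicate 3, 13 of the module rose and 20 fell in NeoT against A10. In that fit 26 rose and 4 fell in T1 against A10, and 26 rose and 7 fell in T1 against NeoT. Over all genes, the same fit called 4948 higher and 5401 lower in NeoT against A10. It called 3872 higher and 4014 lower in T1 against A10, and 5003 higher and 4669 lower in T1 against NeoT.

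**Figure D1:**
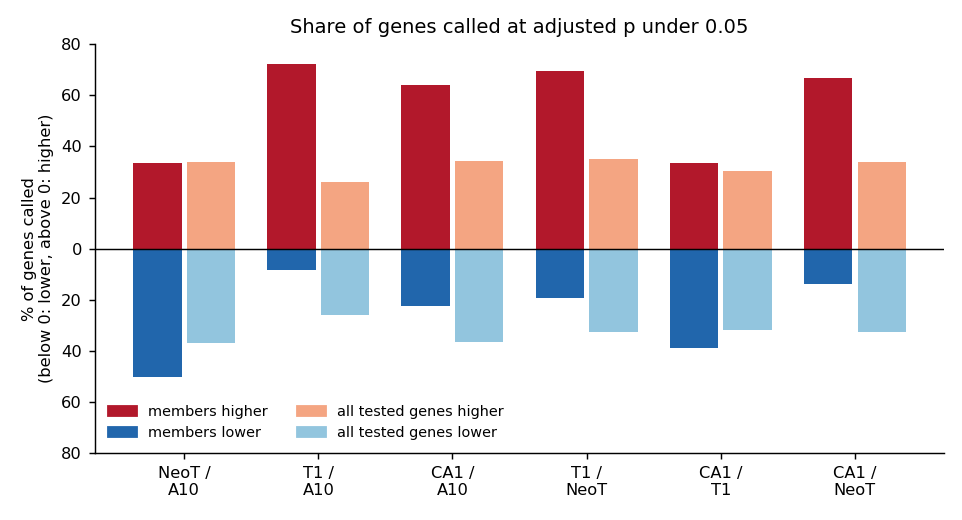
Share of genes called at an adjusted p under 0.05 in each of 6 comparisons, in percent, with higher genes above 0 and lower genes below 0. Dark bars are the 36 genes of the ATF4 module and light bars all 14417 tested genes, and the module's share of higher genes in T1 against A10 is 72.2% beside 26.0%.

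**Figure D2:**
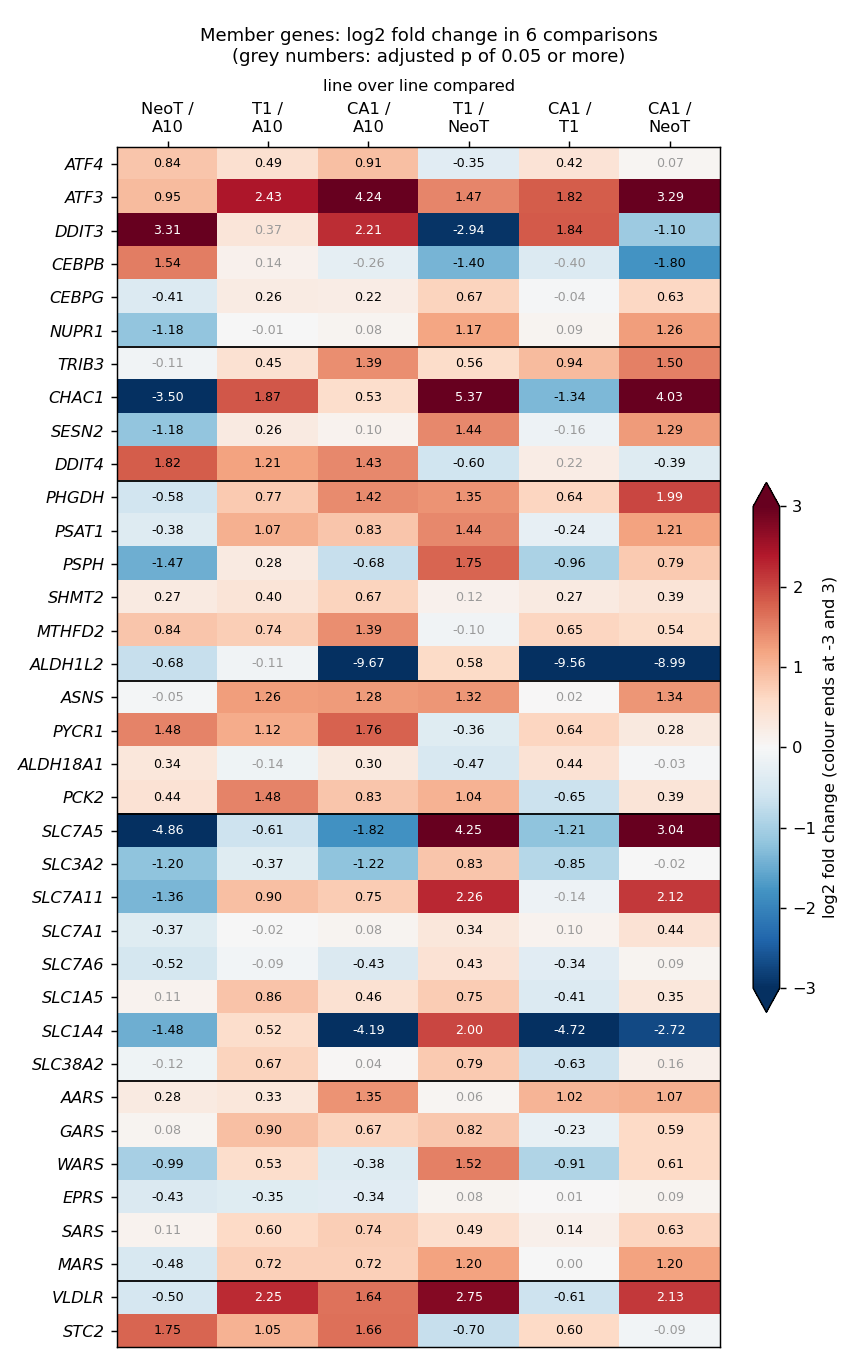
Fitted log2 fold change of each of the 36 genes (rows, ordered by role) in 6 comparisons (columns, first line over second). Colour ends at -3 and 3, and grey numbers mark adjusted p of 0.05 or more. The NeoT over A10 column of the transporters is blue apart from SLC1A5 (0.11, not called), and SLC38A2 (-0.12) is not called either. Their T1 over NeoT column, which shares the NeoT libraries, is red throughout.

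ATF4 itself rose in all 3 derived lines, most in CA1 and NeoT. ATF4 had 453, 418 and 456 CPM in A10, 867, 825 and 683 CPM in NeoT, 636, 628 and 599 CPM in T1 and 818, 859.9 and 813 CPM in CA1. No library of a derived line reached down to the A10 range, T1 lay between A10 and the other lines, and NeoT and CA1 overlapped. The log2 fold change over A10 was 0.84 ± 0.074, adjusted p = 9.22e-09 in NeoT, 0.49 ± 0.074, adjusted p = 1.93e-05 in T1 and 0.91 ± 0.074, adjusted p = 3.27e-09 in CA1 (± SE from the fit). T1 was lower than NeoT (-0.35 ± 0.074, adjusted p = 0.000399), and CA1 was not called against NeoT (0.069 ± 0.074, adjusted p = 0.428).

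ATF3, a stress-induced repressor and partner of ATF4, climbed at each step of the series. ATF3 had 3.54, 3.19 and 2.89 CPM in A10, 6.85, 6.17 and 5.69 CPM in NeoT, 17.2, 16.04 and 19.01 CPM in T1 and 56.9, 62.5 and 64.2 CPM in CA1. The 4 lines did not overlap at any point, and the NeoT libraries already lay above all A10 libraries. CA1 was 18.9-fold above A10 (log2 fold change 4.24 ± 0.12, adjusted p = 1e-15). The steps were 0.95 ± 0.13, adjusted p = 3.85e-06 for NeoT over A10, 1.47 ± 0.12, adjusted p = 2.3e-09 for T1 over NeoT and 1.82 ± 0.10, adjusted p = 4.38e-11 for CA1 over T1.

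DDIT3, which encodes the pro-apoptotic factor CHOP, followed another order. DDIT3 had 2.79, 4.01 and 3.87 CPM in A10, 42.4, 33.7 and 27.98 CPM in NeoT, 5.41, 4.34 and 3.80 CPM in T1 and 15.5, 17.1 and 15.96 CPM in CA1. NeoT stood highest and CA1 next, both clear of A10, while T1 overlapped A10. NeoT over A10 was 3.31 ± 0.18, adjusted p = 6.8e-12, CA1 over A10 was 2.21 ± 0.18, adjusted p = 2.55e-09, and T1 over A10 was not called (0.37 ± 0.19, adjusted p = 0.113). The exons of DDIT3 share 355 bases with MARS on the opposite strand and 58 with MBD6, and no source states that counting used strand. DDIT3 took 3987 counts in all and MARS 65709, so its values are uncertain. MARS was lower in NeoT and higher in T1 and CA1 than in A10 (-0.48 ± 0.063, 0.72 ± 0.062 and 0.72 ± 0.062).

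CEBPB and CEBPG encode C/EBP partners that dimerise with ATF4. CEBPB had 333, 377 and 397 CPM in A10, 1318, 1254 and 639 CPM in NeoT, 430.0, 396 and 392 CPM in T1 and 290.1, 325 and 308 CPM in CA1. All NeoT libraries were above every other library, but NeoT replicate 3 lay well below the other NeoT libraries. NeoT over A10 was 1.54 ± 0.23, adjusted p = 0.000216. CA1 lay below A10 without overlap yet was not called (-0.26 ± 0.23, adjusted p = 0.33), and without NeoT replicate 3 the same difference of -0.26 had an adjusted p of 0.000244. The T1 over A10 difference passed likewise without that library (0.14, adjusted p = 0.043), as did CA1 over T1 (-0.40, adjusted p = 9.74e-07).

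CEBPG was lowest in NeoT, at 34.2 to 38.9 CPM, against 46.96 to 51.7 in A10, 56.7 to 59.7 in T1 and 52.2 to 59.2 in CA1. Its fall in NeoT was -0.41 ± 0.081, adjusted p = 0.000182. The rises over A10 were small, at 0.26 ± 0.079, adjusted p = 0.011 in T1 and 0.22 ± 0.08, adjusted p = 0.0217 in CA1. The CA1 call was lost without A10 replicate 2 or 3 (adjusted p = 0.0647 and 0.0831) or CA1 replicate 1 or 3 (0.0823 and 0.0804), with upper-quartile scaling (0.0518) and with no filter (0.0543). The T1 call was lost without A10 replicate 3 (0.0515). NUPR1, a small stress-induced chromatin regulator, had 108, 119 and 126 CPM in A10, 65.7, 56.9 and 32.6 CPM in NeoT, 119, 124 and 108 CPM in T1 and 120.0, 138 and 117 CPM in CA1. NeoT alone was low, with replicate 3 the lowest, and the other 3 lines overlapped. NeoT over A10 was -1.18 ± 0.20, adjusted p = 0.000273, while T1 and CA1 were not called against A10 (-0.0091 ± 0.19 and 0.083 ± 0.19).

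**Figure D3:**
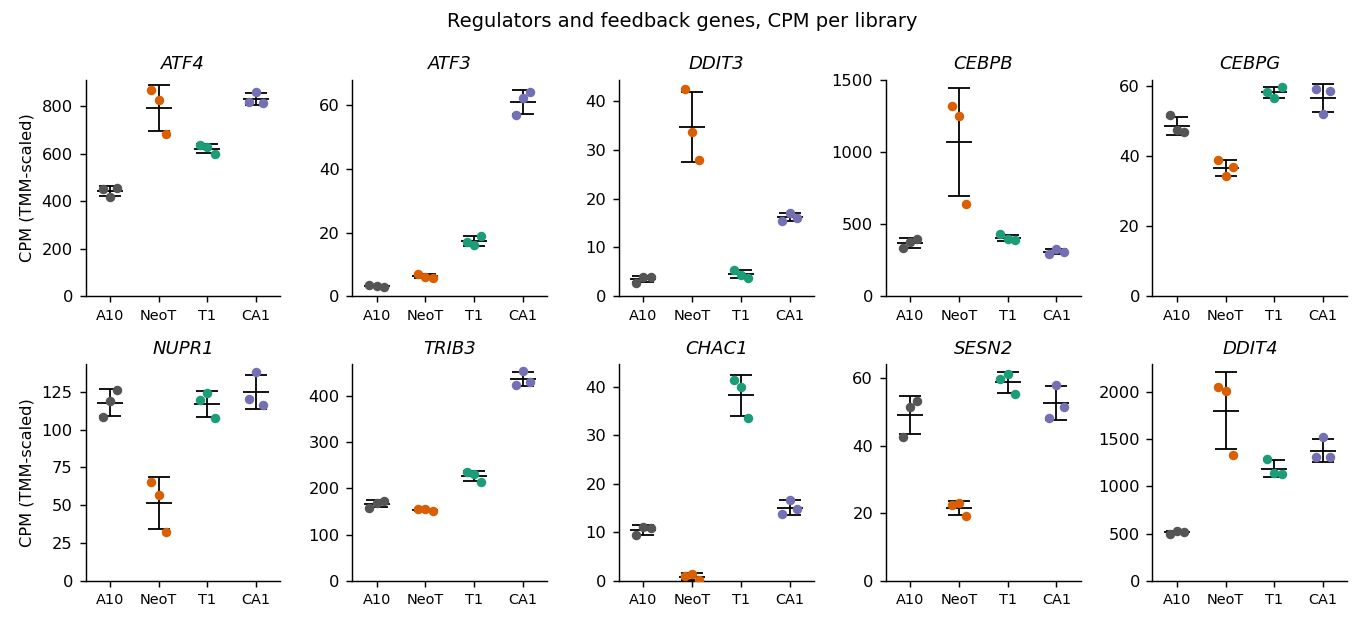
CPM of 6 regulators (ATF4, ATF3, DDIT3, CEBPB, CEBPG, NUPR1) and 4 feedback genes (TRIB3, CHAC1, SESN2, DDIT4) in each library, with lines on the horizontal axis. Points are libraries and bars are mean ± SD (n = 3 per line), and each vertical axis starts at 0. ATF3 steps up through the 4 lines, and CHAC1 is near 0 in NeoT and highest in T1.

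The 4 genes listed as feedback genes moved apart in NeoT and together in T1. In NeoT 1 of 4 rose and 2 fell, in T1 all 4 rose, and in CA1 3 of 4 rose and none fell. Beside them, 33.7% of all tested genes rose and 36.7% fell in NeoT, 26.0% and 25.9% in T1, and 34.4% and 36.5% in CA1. CHAC1, which degrades glutathione and is a widely used readout of ATF4 with CHOP, had 9.40, 11.2 and 10.9 CPM in A10, 0.96, 1.47 and 0.174 CPM in NeoT, 41.5, 40.00 and 33.5 CPM in T1 and 13.8, 16.7 and 14.8 CPM in CA1. NeoT lay far below the other lines and T1 far above them, with no overlap between any of the lines. NeoT libraries held 22, 34 and 3 raw counts, and the fall in NeoT was -3.50 ± 0.28, adjusted p = 5.74e-09. The pooled A10 to NeoT ratio of CPM was 11.1 (95% exact interval 8.53 to 14.7, counting error only). T1 exceeded A10 by 1.87 ± 0.19, adjusted p = 3.09e-07 and NeoT by 5.37 ± 0.27, adjusted p = 1.04e-11. The rise in CA1 (0.53 ± 0.20, adjusted p = 0.0222) was lost without A10 replicate 1 (adjusted p = 0.0927) or CA1 replicate 2 (0.0909).

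TRIB3, a pseudokinase that binds and inhibits ATF4, had 158, 168 and 173 CPM in A10, 154, 155 and 151 CPM in NeoT, 234, 231 and 214 CPM in T1 and 423, 452 and 429.9 CPM in CA1. CA1 was highest and T1 next, and NeoT lay just under A10. CA1 over A10 was 1.39 ± 0.061, adjusted p = 4.29e-13 and T1 over A10 0.45 ± 0.06, adjusted p = 5.03e-06. NeoT over A10 was not called (-0.11 ± 0.061, adjusted p = 0.099), although without A10 replicate 1 it was (-0.15, adjusted p = 0.0418). DDIT4, which restrains mTORC1, had 499.5, 522 and 511 CPM in A10, 2055, 2009 and 1334 CPM in NeoT, 1291, 1139 and 1126 CPM in T1 and 1304, 1521 and 1307 CPM in CA1. Every library of the derived lines was over the A10 libraries by a wide gap, and NeoT replicate 3 lay below the other NeoT libraries, within the CA1 range. The log2 fold change over A10 was 1.82 ± 0.14 in NeoT, 1.21 ± 0.14 in T1 and 1.43 ± 0.14 in CA1, all called. SESN2, a leucine sensor that also restrains mTORC1, stood at 19.1 to 23.2 CPM in NeoT, 55.2 to 61.3 in T1 and 48.4 to 58.1 in CA1, against 42.7 to 53.3 in A10. Its fall in NeoT was -1.18 ± 0.10, adjusted p = 9.21e-09. The T1 rise (0.26 ± 0.10, adjusted p = 0.0356) was lost without A10 replicate 1 (adjusted p = 0.2), T1 replicate 1 (0.0961) or T1 replicate 2 (0.119), and CA1 was not called (0.10 ± 0.10, adjusted p = 0.375).

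The enzymes that make serine were lowest in NeoT. Of the mitochondrial folate enzymes, SHMT2 and MTHFD2 were lowest in A10 and ALDH1L2 in CA1. Of 6 serine and one-carbon enzymes, 2 rose and 4 fell in NeoT, 5 rose and none fell in T1, and 4 rose and 2 fell in CA1. Among all tested genes, 33.7% rose and 36.7% fell in NeoT, 26.0% and 25.9% in T1, and 34.4% and 36.5% in CA1. PHGDH, the first enzyme of serine synthesis from glycolytic 3-phosphoglycerate, had 152, 178 and 167 CPM in A10, 100.1, 111 and 122 CPM in NeoT, 286, 296 and 268 CPM in T1 and 439, 449 and 438 CPM in CA1. NeoT was below A10 and T1 and CA1 above it in every library, with no overlap. The log2 fold change over A10 was -0.58 ± 0.075, adjusted p = 1.69e-06 in NeoT, 0.77 ± 0.075, adjusted p = 6.49e-08 in T1 and 1.42 ± 0.075, adjusted p = 6.52e-12 in CA1.

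PSAT1, the aminotransferase of the second step, had 222, 206 and 205 CPM in A10, 155, 153 and 181 CPM in NeoT, 437, 443 and 447 CPM in T1 and 371, 383 and 371 CPM in CA1. It was highest in T1 rather than CA1, and again NeoT was the lowest line with no overlap. Over A10 the change was -0.38 ± 0.067, adjusted p = 6.19e-05 in NeoT, 1.07 ± 0.067, adjusted p = 1.54e-10 in T1 and 0.83 ± 0.066, adjusted p = 2.29e-09 in CA1. PSPH, the phosphatase that releases serine, had 58.6, 58.02 and 60.3 CPM in A10, 19.4, 19.7 and 24.8 CPM in NeoT, 68.5, 74.1 and 71.8 CPM in T1 and 37.1, 35.6 and 37.7 CPM in CA1. Both NeoT and CA1 lay below A10, and T1 just above it. In CA1, where PHGDH and PSAT1 rose, PSPH fell against A10 (-0.68 ± 0.088, adjusted p = 1.45e-06). In NeoT the change was -1.47 ± 0.091, adjusted p = 5.39e-11, and in T1 0.28 ± 0.085, adjusted p = 0.0105.

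SHMT2 splits serine into glycine and a folate-bound one-carbon unit in mitochondria, and MTHFD2 oxidises that unit. SHMT2 stood at 318 to 349.7 CPM in NeoT, 347 to 392 in T1 and 413 to 472 in CA1, against 275 to 286 in A10. It rose by 0.27 ± 0.066, 0.40 ± 0.066 and 0.67 ± 0.066 on the log2 scale in NeoT, T1 and CA1. MTHFD2 had 157, 134 and 141 CPM in A10, 249, 248 and 278 CPM in NeoT, 238, 233 and 251 CPM in T1 and 388, 359 and 384 CPM in CA1. A10 was below all other libraries, CA1 above all others, and NeoT and T1 overlapped. MTHFD2 rose by 0.84 ± 0.07, adjusted p = 3.56e-09 in NeoT, 0.74 ± 0.07, adjusted p = 4.68e-08 in T1 and 1.39 ± 0.07, adjusted p = 3.33e-12 in CA1. Its exons share 1324 bases with SLC4A5 on the opposite strand, a gene with 3155 counts in all against 74256 for MTHFD2.

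ALDH1L2, the mitochondrial enzyme that oxidises formyl-folate to carbon dioxide and yields NADPH, was all but missing from CA1. ALDH1L2 had 106, 105 and 103 CPM in A10, 56.8, 59.6 and 79.3 CPM in NeoT, 93.3, 99.9 and 97.9 CPM in T1 and 0.0563, 0.0432 and 0.251 CPM in CA1. NeoT was lower than A10 without overlap, T1 was just under A10, and CA1 stood apart by orders of magnitude. The 3 CA1 libraries held 1, 1 and 6 counts, 8 in all (exact 95% interval 3.45 to 15.8). The pooled A10 to CA1 ratio of CPM was 849 (interval 431 to 1966) and the T1 to CA1 ratio 786 (399 to 1822), for counting error only. The fitted log2 fold change of CA1 over A10 was -9.67 ± 0.23, adjusted p = 9.66e-17, and -10.93 without CA1 replicate 3. NeoT over A10 was -0.68 ± 0.11, adjusted p = 1.8e-05, and T1 over A10 was not called (-0.11 ± 0.11, adjusted p = 0.418). Of the 3 mitochondrial folate enzymes of the module, SHMT2 and MTHFD2 were highest in CA1 and ALDH1L2 was lowest there.

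**Figure D4:**
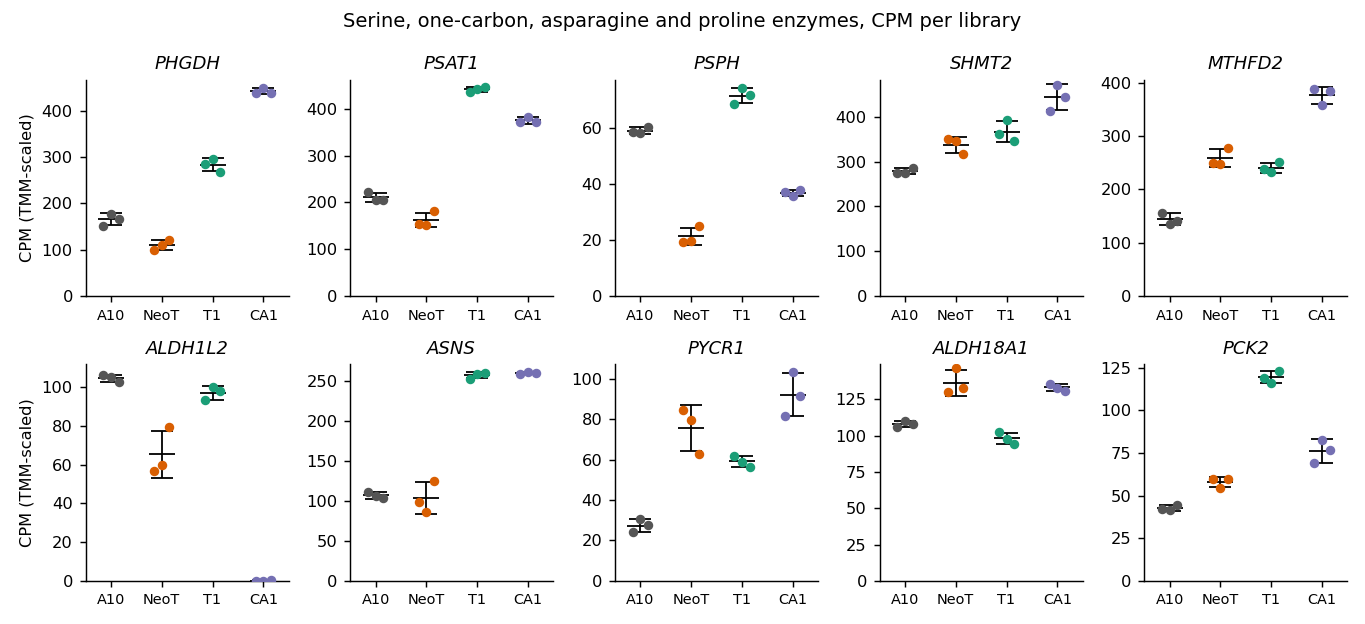
CPM per library of 6 serine and one-carbon enzymes and of ASNS, PYCR1, ALDH18A1 and PCK2, with lines on the horizontal axis. Points are libraries and bars are mean ± SD (n = 3 per line), from axes that start at 0. PHGDH and PSAT1 are lowest in NeoT, and ALDH1L2 is near 0 in CA1.

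Asparagine, proline and phosphoenolpyruvate enzymes rose in 3 of 4 cases in NeoT and T1 and in all 4 in CA1, and none fell against A10. Over all tested genes, 33.7% rose and 36.7% fell in NeoT, 26.0% and 25.9% in T1, and 34.4% and 36.5% in CA1. ASNS, which makes asparagine from aspartate and glutamine and is a classic ATF4 target, had 112, 106 and 104 CPM in A10, 98.5, 86.4 and 126 CPM in NeoT, 253, 259.5 and 260.2 CPM in T1 and 259, 262 and 261 CPM in CA1. T1 and CA1 were over every A10 library by a wide gap and overlapped each other, and NeoT spread on both sides of A10. ASNS rose by 1.26 ± 0.094, adjusted p = 2.13e-09 in T1 and 1.28 ± 0.094, adjusted p = 7.94e-10 in CA1. NeoT was not called (-0.054 ± 0.094, adjusted p = 0.623), but without NeoT replicate 3, its highest library, it was lower than A10 (-0.22, adjusted p = 0.00264).

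PYCR1, the mitochondrial enzyme that completes proline, had 24.2, 30.5 and 27.5 CPM in A10, 84.8, 79.8 and 62.9 CPM in NeoT, 62.02, 59.1 and 56.4 CPM in T1 and 81.9, 103 and 91.8 CPM in CA1. Each derived library was above each A10 library, and T1 was the lowest of the derived lines. PYCR1 rose by 1.48 ± 0.11, adjusted p = 1.68e-09 in NeoT, 1.12 ± 0.11, adjusted p = 1.57e-07 in T1 and 1.76 ± 0.11, adjusted p = 1.51e-10 in CA1. ALDH18A1, which starts proline synthesis from glutamate, moved less, at 129.8 to 146 CPM in NeoT, 94.3 to 102 in T1 and 131 to 136 in CA1 against 106 to 109.8 in A10. It rose by 0.34 ± 0.065 in NeoT and 0.30 ± 0.065 in CA1. In T1 it was not called (-0.14 ± 0.065, adjusted p = 0.0838), but without NeoT replicate 3 it was lower (-0.14, adjusted p = 0.0395). PCK2, the mitochondrial enzyme that makes phosphoenolpyruvate, had 42.2, 41.2 and 44.6 CPM in A10, 59.7, 54.5 and 59.7 CPM in NeoT, 119, 116 and 123 CPM in T1 and 68.9, 82.6 and 76.4 CPM in CA1. It was highest in T1 with all 4 lines apart. Over A10 PCK2 rose by 0.44 ± 0.078, adjusted p = 5.7e-05 in NeoT, 1.48 ± 0.077, adjusted p = 1.16e-11 in T1 and 0.83 ± 0.077, adjusted p = 1.82e-08 in CA1.

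Amino acid transporters had the lowest median log2 fold change of the 7 roles in NeoT (-0.86), with 6 of 8 lower and none higher than in A10, 4 of them at least 2-fold, where 19.1% of all tested genes fell at least 2-fold. In T1 4 of 8 were higher and 2 lower than in A10, and in CA1 2 were higher and 4 lower. Of all tested genes, 33.7% were higher and 36.7% lower in NeoT, 26.0% and 25.9% in T1, and 34.4% and 36.5% in CA1. All 8 were higher in T1 than in NeoT, beside the 35.0% of all tested genes given above. In CA1 against T1, 6 of 8 were lower and none higher, beside 31.9% of all tested genes lower and 30.4% higher. Of the 9 epithelial markers, 7 were lower and 1 higher in NeoT than in A10. All 9 were higher in T1 than in NeoT, and in CA1 against T1 3 were higher and 6 lower. Any link of these markers to the transporters was not tested.

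SLC7A5 encodes LAT1, the exchanger that brings leucine and other large neutral amino acids in, and SLC3A2 its heavy chain CD98. SLC7A5 had 2436, 2773 and 2647 CPM in A10, 90.2, 93.6 and 86.4 CPM in NeoT, 1713, 1742 and 1686 CPM in T1 and 713, 753 and 755 CPM in CA1. The order A10, T1, CA1, NeoT held in every library, and the 4 lines did not overlap. NeoT was 29.1-fold below A10 (log2 fold change -4.86 ± 0.069, adjusted p = 5.88e-20). The falls in T1 and CA1 were -0.61 ± 0.058, adjusted p = 5.48e-08 and -1.82 ± 0.06, adjusted p = 6.4e-15, and T1 exceeded NeoT by 4.25 ± 0.067, adjusted p = 9.06e-20. Its near copies SLC7A5P1 and SLC7A5P2 held 272 and 665 counts in all, beside 436294 for SLC7A5.

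SLC3A2 had 573, 604 and 610.2 CPM in A10, 259.9, 271 and 246 CPM in NeoT, 485, 446 and 454 CPM in T1 and 250.4, 268 and 249.6 CPM in CA1. NeoT and CA1 shared a low level and overlapped, T1 lay between them and A10, and A10 was highest. The falls against A10 were -1.20 ± 0.061, adjusted p = 3.23e-12 in NeoT, -0.37 ± 0.06, adjusted p = 4.66e-05 in T1 and -1.22 ± 0.061, adjusted p = 2.88e-12 in CA1. In NeoT the log2 fold changes of the pair were -1.20 for SLC3A2 and -4.86 for SLC7A5, and the difference between the genes was not tested. SLC7A11, which pairs with the same heavy chain to exchange glutamate for cystine, had 57.4, 56.02 and 52.6 CPM in A10, 19.98, 20.5 and 24.2 CPM in NeoT, 102, 103 and 105 CPM in T1 and 96.2, 91.8 and 91.7 CPM in CA1. It moved against SLC7A5 in T1 and CA1, with NeoT lowest and T1 and CA1 above A10 in every library. The log2 fold change over A10 was -1.36 ± 0.08, adjusted p = 2.58e-11 in NeoT, 0.90 ± 0.075, adjusted p = 9.29e-09 in T1 and 0.75 ± 0.075, adjusted p = 5.16e-08 in CA1.

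SLC1A4 and SLC1A5 encode ASCT1 and ASCT2, sodium-coupled exchangers of alanine, serine, cysteine and, for ASCT2, glutamine. SLC1A4 had 18.1, 21.1 and 21.7 CPM in A10, 5.28, 8.67 and 8.01 CPM in NeoT, 31.5, 27.7 and 28.3 CPM in T1 and 1.63, 0.863 and 0.922 CPM in CA1. CA1 was lowest and NeoT next, both below A10, and T1 was highest, without overlap between lines. Over A10 it was -1.48 ± 0.17, adjusted p = 3.02e-07 in NeoT and -4.19 ± 0.22, adjusted p = 4.43e-12 in CA1, where the 3 libraries held 29, 20 and 22 counts. Its T1 rise (0.52 ± 0.15, adjusted p = 0.00829) had an adjusted p of 0.0519 without A10 replicate 1. SLC1A5 had 325, 369 and 367 CPM in A10, 399.9, 397 and 349.9 CPM in NeoT, 653, 643 and 636 CPM in T1 and 466, 511 and 481 CPM in CA1. T1 was highest and CA1 next, both above every A10 library, and NeoT overlapped A10. It rose by 0.86 ± 0.068, adjusted p = 3.85e-09 in T1 and 0.46 ± 0.067, adjusted p = 7.6e-06 in CA1. NeoT was not called (0.11 ± 0.067, adjusted p = 0.147) but was higher without NeoT replicate 3 (0.17, adjusted p = 0.00959).

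The other transporters were SLC38A2, SLC7A1 and SLC7A6. SLC38A2, the sodium-coupled neutral amino acid transporter SNAT2, stood at 412 to 501 CPM in NeoT, 753 to 794 in T1 and 493 to 514 in CA1, against 459 to 532 in A10. T1 alone rose (0.67 ± 0.072, adjusted p = 2.71e-07), while NeoT was not called (-0.12 ± 0.072, adjusted p = 0.151) except without NeoT replicate 3 (-0.20, adjusted p = 0.00282). SLC7A1, the cationic transporter CAT1, stood at 157 to 166 CPM in NeoT against 198 to 220.0 in A10, and fell there (-0.37 ± 0.061, adjusted p = 3.08e-05). Its T1 and CA1 levels were not called against A10 (-0.022 ± 0.06 and 0.079 ± 0.061). SLC7A6, the exchanger y+LAT2, fell in NeoT (-0.52 ± 0.084, adjusted p = 2.01e-05) and CA1 (-0.43 ± 0.083, adjusted p = 0.000152) and was not called in T1 (-0.093 ± 0.082). SLC7A6 shares 3371 exon bases with SLC7A6OS on the opposite strand, with 14536 and 3167 counts in all, so its values are uncertain.

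**Figure D5:**
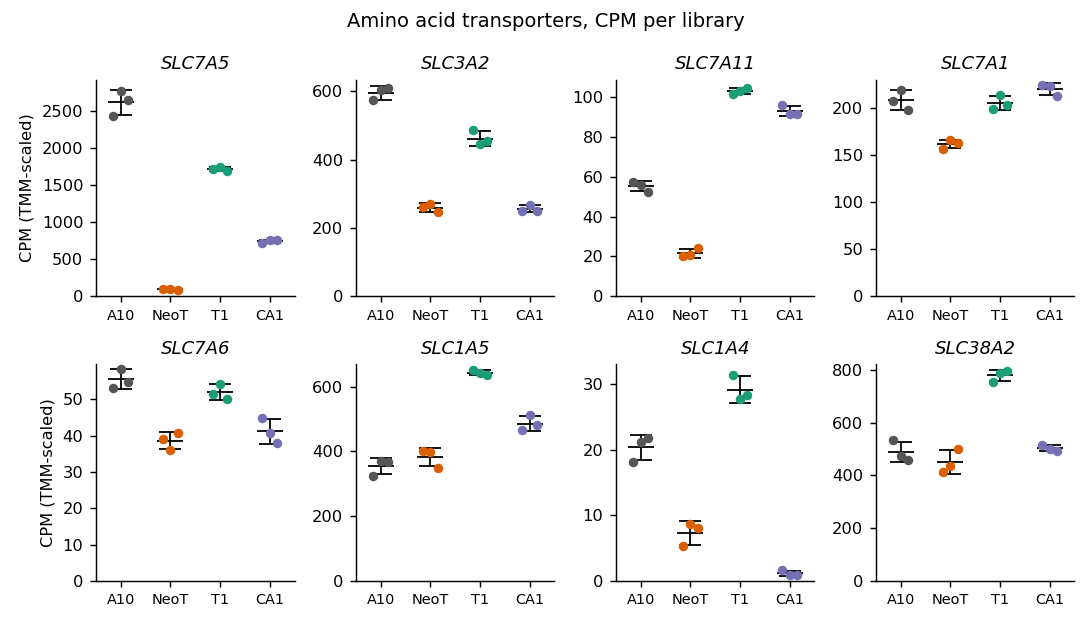
CPM per library of 8 amino acid transporter genes, with lines on the horizontal axis. Points are libraries and bars are mean ± SD (n = 3 per line), from axes that start at 0. SLC7A5 spans 86.4 CPM in the lowest NeoT library to 2773 in the highest A10 library, and T1 is above NeoT for each of the 8 genes.

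Cytosolic tRNA synthetases, which charge tRNAs with their amino acids, mostly rose in T1 and CA1, with EPRS lower in both and WARS lower in CA1. In NeoT 1 of 6 rose and 3 fell, in T1 5 rose and 1 fell, and in CA1 4 rose and 2 fell. The shares of all tested genes were 33.7% up and 36.7% down in NeoT, 26.0% and 25.9% in T1, and 34.4% and 36.5% in CA1. AARS, which charges alanine and whose promoter is printed above, had 151, 164 and 156 CPM in A10, 189, 188 and 194 CPM in NeoT, 208, 199.5 and 186 CPM in T1 and 401, 406 and 392 CPM in CA1. CA1 was far above every other line, NeoT and T1 overlapped, and A10 was lowest. AARS rose by 0.28 ± 0.06, adjusted p = 0.000469 in NeoT, 0.33 ± 0.06, adjusted p = 0.000126 in T1 and 1.35 ± 0.06, adjusted p = 5.59e-13 in CA1. WARS, which charges tryptophan and is also induced by interferon, had 191, 182 and 183 CPM in A10, 94.3, 87.9 and 98.3 CPM in NeoT, 265, 274 and 263 CPM in T1 and 137, 142 and 149 CPM in CA1. NeoT was lowest and T1 highest, with CA1 between NeoT and A10. WARS was -0.99 ± 0.063, adjusted p = 8.19e-11 in NeoT, 0.53 ± 0.062, adjusted p = 8.02e-07 in T1 and -0.38 ± 0.062, adjusted p = 2.58e-05 in CA1, all over A10.

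MARS, the methionyl enzyme, stood at 116 to 134 CPM in NeoT, 278 to 289.5 in T1 and 280.3 to 287 in CA1, against 168 to 175 in A10. NeoT lay below A10 and the overlapping T1 and CA1 libraries above it, with changes of -0.48 ± 0.063, 0.72 ± 0.062 and 0.72 ± 0.062 in NeoT, T1 and CA1. GARS, the glycyl enzyme, was highest in T1, with 0.90 ± 0.072 over A10, and 0.67 ± 0.072 in CA1, while NeoT was not called (0.078 ± 0.072). SARS, the seryl enzyme, rose by 0.60 ± 0.054 in T1 and 0.74 ± 0.054 in CA1 and was not called in NeoT (0.11 ± 0.054, adjusted p = 0.0781). In NeoT it was called higher with DESeq2 (0.12, adjusted p = 0.0169) and with upper-quartile scaling (0.15, adjusted p = 0.0209). EPRS, which joins the glutamyl and prolyl enzymes in a single protein, fell in each derived line, with log2 fold changes of -0.43 ± 0.076, adjusted p = 5.71e-05 in NeoT, -0.35 ± 0.076, adjusted p = 0.000743 in T1 and -0.34 ± 0.076, adjusted p = 0.00059 in CA1. EPRS stood at 316 to 411 CPM in NeoT, 364 to 382 in T1 and 371 to 386 in CA1, against 465 to 485 in A10. NeoT replicate 3 was its highest NeoT library, and without it T1 was higher than NeoT (0.20, adjusted p = 0.00113).

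VLDLR and STC2, the surface receptor and the secreted glycoprotein of the module, both rose in T1 and CA1. VLDLR, which takes up triglyceride-rich lipoproteins, had 4.25, 6.42 and 3.90 CPM in A10, 2.75, 3.71 and 3.83 CPM in NeoT, 22.95, 22.5 and 23.3 CPM in T1 and 15.3, 14.98 and 14.7 CPM in CA1. T1 was highest and CA1 next, both far above A10 and NeoT, whose libraries did not overlap. VLDLR rose by 2.25 ± 0.16, adjusted p = 1.33e-09 in T1 and 1.64 ± 0.16, adjusted p = 5.68e-08 in CA1. Its fall in NeoT (-0.50 ± 0.18, adjusted p = 0.0226) was lost without A10 replicate 2 (-0.26, adjusted p = 0.161) or NeoT replicate 1 (-0.35, 0.115). The call was also lost with limma-voom (adjusted p = 0.074), limma-voom with quality weights (0.148) and a fit of the 6 libraries compared (0.108). STC2, stanniocalcin 2, had 76.4, 81.5 and 74.5 CPM in A10, 274, 280.0 and 225 CPM in NeoT, 161, 164 and 156 CPM in T1 and 230.3, 261 and 240.3 CPM in CA1. A10 was below all other libraries, T1 next, and NeoT and CA1 overlapped. STC2 rose by 1.75 ± 0.081, adjusted p = 7.56e-13 in NeoT, 1.05 ± 0.079, adjusted p = 2.35e-09 in T1 and 1.66 ± 0.08, adjusted p = 1.76e-12 in CA1.

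Genes around the module were read from lists chosen by role, and each count is set against the shares over all tested genes: 33.7% of all tested genes were higher and 36.7% lower in NeoT, 26.0% higher and 25.9% lower in T1, and 34.4% higher and 36.5% lower in CA1. Of 8 genes for eIF2alpha, its kinases, their activator and its phosphatase subunits, 3 rose and 2 fell in NeoT, 4 rose and 2 fell in T1, and 3 rose and 2 fell in CA1. The medians were 0.021, 0.14 and 0.17. PPP1R15A, the inducible phosphatase subunit that ends the response, stood at 119.9 ± 37.6 CPM in NeoT and 60.9 ± 2.46 in T1 against 33.7 ± 1.76 in A10 (SD, n = 3 each), with log2 fold changes of 1.84 ± 0.19 and 0.86 ± 0.19. CA1 was not called for it (0.34 ± 0.19, adjusted p = 0.132). EIF2AK3, the kinase PERK of the endoplasmic reticulum, rose by 0.50 ± 0.10 in NeoT, 0.28 ± 0.10 in T1 and 0.80 ± 0.10 in CA1. EIF2AK4, the amino acid sensing kinase GCN2, was slightly lower in T1 (-0.19 ± 0.066, adjusted p = 0.0198) and CA1 (-0.22 ± 0.067, adjusted p = 0.00614).

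A list of 30 further genes reported as ATF4 targets had 14 up and 9 down in NeoT, 21 up and 3 down in T1, and 17 up and 6 down in CA1 (medians 0.30, 0.43 and 0.43, against -0.042, -0.0066 and -0.023 over all tested genes). TXNIP, an inhibitor of thioredoxin, had the smallest adjusted p of the list in NeoT, at 1771 CPM against 217 in A10 (3.03 ± 0.059, adjusted p = 3.34e-18), and was 0.49 ± 0.055 in T1 and 1.55 ± 0.056 in CA1. VEGFA, the vascular growth factor, was lower in NeoT (-0.30 ± 0.068) and higher in T1 (0.81 ± 0.068) and CA1 (1.92 ± 0.069). The pro-apoptotic PMAIP1 fell in NeoT (-2.45 ± 0.12, adjusted p = 1.58e-12). ATF5, a relative of ATF4, was lower in CA1 (-1.70 ± 0.10, adjusted p = 3.66e-11). CBS, of the route that turns homocysteine to cysteine, fell in T1 (-3.46 ± 0.29, adjusted p = 1.68e-08) and CA1 (-2.65 ± 0.28, adjusted p = 1.52e-07).

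The wider folate and one-carbon list was mixed. Of its 19 tested genes, 6 rose and 6 fell in NeoT, 6 rose and 9 fell in T1, and 5 rose and 12 fell in CA1, with medians of -0.17, 0.0069 and -0.42. TYMS, which makes thymidylate, fell in NeoT (-1.71 ± 0.076), T1 (-1.24 ± 0.074) and CA1 (-1.84 ± 0.077). MTHFD1L, the mitochondrial enzyme that follows MTHFD2, rose with it, by 0.71 ± 0.072 in NeoT, 0.69 ± 0.072 in T1 and 1.42 ± 0.072 in CA1.

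Of 17 other cytosolic synthetases and complex subunits, 10 rose and 4 fell in NeoT, 9 rose and none fell in T1, and 9 rose and 3 fell in CA1, with medians of 0.37, 0.25 and 0.31. LARS, the leucyl enzyme, rose to 471 CPM in NeoT against 167 in A10 (1.498 ± 0.086, adjusted p = 1.82e-11). KARS, the lysyl enzyme, rose by 0.95 ± 0.058 in NeoT. CARS, the cysteinyl enzyme, rose in NeoT (0.48 ± 0.066), T1 (0.84 ± 0.066) and CA1 (1.10 ± 0.066). HARS, the histidyl enzyme, fell in NeoT (-0.30 ± 0.061) and CA1 (-0.76 ± 0.061). Among these 17, 7 are also on the list of further ATF4 targets.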

How the data were processed

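Per the labels' protocols, DNase I was applied to the RNA before library making with the NEBNext Ultra kit. The authors deposited 1 table of estimated counts (called expected counts elsewhere) for genes, made by the authors with Salmon to judge by its name, with no scaling between libraries. Per the submitters' processing notes GRCh38 and limma were used, without a stated role. Annotation, versions and strand setting are not given in the sources used here. All 12 columns of sample values were used (0 left out). Of the values 10.1% were not whole, and they were rounded, by at most 0.5. Of 29744 rows, 10297 held no count.

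The filterByExpr rule of edgeR, applied by line, left 14417 genes, and TMM factors scaled the libraries. edgeR 4.0.16 (R 4.3.3) fitted a robust quasi-likelihood model with 1 mean per line to all 12 libraries. Its tests were two-sided, with Benjamini-Hochberg adjustment over all tested genes, and 6 pairs of lines were compared. The SE of a log2 fold change is its size divided by the root of the F statistic. CPM are given per library or as mean ± SD (n = 3). Values of genes at a few counts carry exact Poisson intervals. The model was tested on simulated data for NeoT against A10 with 14417 genes: 85% of 2-fold and 99% of 4-fold changes were recovered, and 5.15% of calls were false. There 100 genes were changed 2-fold and 100 genes 4-fold in NeoT, and each gene had the same spread in all lines. In the data 4854 genes were called higher and 5290 lower in NeoT, which also had the widest spread. The simulated rates therefore do not describe that comparison.

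All 36 members are given by values or in a count. Of the lists around them, genes named are among the 4 with the smallest adjusted p per list and comparison with A10. Some genes of these lists are not reported here by name, though the list counts include them. The markers CDH1, TP63, KRT5, KRT8, KRT18, DCN, POSTN, CD68, CD14, PECAM1 and KDR were named after their values were seen. List symbols numbered 167, each matched to a row, and GCN1 and PYCR3 were matched through the older names GCN1L1 and PYCRL. The members and lists were chosen with earlier results of these data known, so counts over them are descriptions. Exon overlaps and near copies were read from a GRCh38 annotation, and promoters from RefSeq (GRCh38.p14).

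Replicate numbers of the lines did not pair the libraries: over 18 same-number pairs the correlation of deviations from the line mean ran from -0.069 to 0.088. Other settings tried were scaling by RLE or upper quartile, dropping the filter or asking 1 CPM in 3 libraries, limma-voom 3.58.1 with and without quality weights per line, DESeq2 1.42.0, a block for the replicate number, fitting the 6 libraries of a pair alone, removal of cytoplasmic rRNA rows, and leaving out each library. A fit without both T1 replicate 1 and NeoT replicate 3 was added after their values were known. Figures and promoter searches were made in Python 3.11.15 with pandas 2.3.3 and matplotlib 3.10.9.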

Additional observations from a re-analysis of the deposited data

How the results depend on the processing

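No member changed its called direction under any alternative, and over members, comparisons and settings 4892 results kept their side of the threshold, 39 passed it only under an alternative and 37 lost it under one. All 36 members differed among the lines in each fit that held the 4 lines, where 89.8% of all tested genes differed in the main fit. Over all settings the members higher in NeoT than in A10 numbered 12 to 13 and the lower ones 17 to 20. For T1 against A10 the ranges were 24 to 27 higher and 3 to 4 lower, for CA1 against A10 22 to 23 and 8 to 9, for T1 against NeoT 25 to 26 and 7, for CA1 against T1 11 to 13 and 13 to 17, and for CA1 against NeoT 23 to 25 and 4 to 6. With 1 library left out, the ranges were the same except for the lower members of CA1 against T1, at 13 to 16. Counts over all genes varied with the setting too, from 4531 to 5062 higher and 4876 to 5471 lower in NeoT against A10. In the main fit, 33.7% of all tested genes were higher and 36.7% lower there. Those shares were 26.0% and 25.9% in T1 against A10, 34.4% and 36.5% in CA1 against A10, and 35.0% and 32.4% in T1 against NeoT. They were 30.4% and 31.9% in CA1 against T1 and 33.8% and 32.7% in CA1 against NeoT. The replicate number as a block left each count as it was (12 and 18 in NeoT against A10, 26 and 3 in T1 against A10, 23 and 8 in CA1 against A10, 25 and 7 in T1 against NeoT, 12 and 14 in CA1 against T1, 24 and 5 in CA1 against NeoT), and 7 of 12 libraries correlated best with one of their own number. Calls of CEBPG in T1 and CA1 against A10, of SESN2 and SLC1A4 in T1 against A10, of CHAC1 in CA1 against A10, of DDIT4 and PYCR1 in CA1 against NeoT, of SARS and GARS in CA1 against T1 and of VLDLR in NeoT against A10 were lost under some settings, and the cause was not tested. NeoT had the widest replicate spread (median coefficient of variation of the members 9.92%, against 4.68% in A10), which limits small differences in that line.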

Other observations

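Neighbouring pathways were counted in the same fit, against A10 in each case, where 33.7% of all tested genes were higher and 36.7% lower in NeoT, 26.0% higher and 25.9% lower in T1, and 34.4% higher and 36.5% lower in CA1. Of 13 genes of the IRE1 and ATF6 arms of the unfolded protein response, 7 rose and 3 fell in NeoT, 3 rose and 5 fell in T1, and 8 rose and 4 fell in CA1 (medians 0.50, -0.11 and 0.37). HSP90B1, the chaperone GRP94, rose in NeoT (1.09 ± 0.061, adjusted p = 1.18e-11) and CA1 (0.71 ± 0.06, adjusted p = 5.33e-09) and was not called in T1 (-0.091 ± 0.06, adjusted p = 0.222). DNAJB9, a co-chaperone, rose by 1.51 ± 0.091 in NeoT, 0.44 ± 0.092 in T1 and 1.09 ± 0.091 in CA1. EDEM1, which sends misfolded glycoproteins to degradation, fell in NeoT (-1.26 ± 0.072) and T1 (-0.45 ± 0.07) and rose in CA1 (0.53 ± 0.07).

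Of 14 tested amino acid transporters outside the module, 3 rose and 8 fell in NeoT, 6 rose and 6 fell in T1, and 3 rose and 10 fell in CA1 (medians -0.47, 0.066 and -0.67). SLC6A14, a broad importer, had 42.2 CPM in T1 and 109.9 in CA1 against 0.803 in A10 (5.66 ± 0.17, adjusted p = 4.14e-15 and 7.04 ± 0.17, adjusted p = 7.23e-17). SLC36A1, a lysosomal proton-coupled transporter, fell in NeoT (-2.61 ± 0.15), T1 (-0.87 ± 0.13) and CA1 (-3.03 ± 0.15). Of 13 tested glutamine, aspartate and proline enzymes, 3 rose and 9 fell in NeoT, 5 rose and 4 fell in T1, and 6 rose and 5 fell in CA1 (medians -0.88, -0.012 and 0.057). GLUL, which makes glutamine, fell in NeoT (-0.88 ± 0.06), T1 (-0.72 ± 0.06) and CA1 (-1.89 ± 0.062). Of 17 mitochondrial tRNA synthetases, 4 rose and 7 fell in NeoT, 4 rose and 7 fell in T1, and 3 rose and 8 fell in CA1 (medians -0.15, -0.043 and -0.19). IARS2, the isoleucyl enzyme, fell in NeoT (-0.92 ± 0.082), T1 (-0.97 ± 0.081) and CA1 (-1.05 ± 0.082).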
